A study of Homo sapiens with 24 samples.

Results

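MAGEB1, MAGEB2, MAGEC1 and MAGEC2 are cancer-testis antigen genes of the melanoma antigen (MAGE) family. They were chosen by gene name, with earlier results of these data known, from the deposited gene table, as 4 of 63677 genes. All 4 were among the 19377 genes tested. Total RNA had been sequenced from HepG2, SNU398 and SNU475 cells, 3 established lines of liver cancer. Cells of each line received the vehicle (phosphate-buffered saline, DPBS), decitabine at 100 nM, GSK-126 at 500 nM or both drugs (the combination), daily for 3 days. HepG2 and SNU398 were harvested on day 14 and SNU475 on day 21, so a difference between SNU475 and the other lines cannot be told apart from the later harvest. Each of the 12 groups of line and treatment had 2 libraries, replicates A and B. The labels give no engineered allele in any line, and the study asked whether the 2 drugs act together on gene activation.

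Genes of the MAGEB and MAGEC subfamilies lie on the X chromosome and are normally expressed in the germ cells of the testis. In most other adult tissues they are silent, and methylation of CG dinucleotides at their promoters is part of that silencing. Decitabine is a cytidine analog that is built into DNA and traps the enzymes that maintain this methylation. GSK-126 inhibits EZH2, the catalytic subunit of the Polycomb complex that places a repressive methyl mark on histone H3. MAGE proteins share a domain through which they bind ubiquitin ligases, and fragments of MAGE proteins presented on tumour cells can be recognised by T cells. MAGEC2 is known to bind the ligase and corepressor TRIM28.

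On hg19 the genes form 2 neighbourhoods. MAGEB2 (ENSG00000099399) lies at chrX:30233677-30238206, and MAGEB1 (ENSG00000214107) lies 23641 bases further along at chrX:30261847-30270155. MAGEC1 (ENSG00000155495) lies at chrX:140991680-140997174 and MAGEC2 (ENSG00000046774) at chrX:141290131-141293076. Their start regions are shown because the drugs act on promoter chromatin and because all 4 genes shared a sequence element there that was not used to choose them. The sequences are RefSeq's on GRCh38.p14, from 150 bases before the annotated start to 30 after it, read on the gene's strand. Capitals mark CGGATG and CGGAAG on either strand, so that a match on the opposite strand reads CATCCG or CTTCCG; these letters were chosen after the sequences were seen.
MAGEB1, chrX:30246996-30247175, plus strand: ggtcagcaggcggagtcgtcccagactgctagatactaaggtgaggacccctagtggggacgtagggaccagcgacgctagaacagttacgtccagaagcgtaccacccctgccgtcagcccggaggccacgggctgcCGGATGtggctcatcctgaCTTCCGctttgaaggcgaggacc
MAGEB2, chrX:30215413-30215592, plus strand: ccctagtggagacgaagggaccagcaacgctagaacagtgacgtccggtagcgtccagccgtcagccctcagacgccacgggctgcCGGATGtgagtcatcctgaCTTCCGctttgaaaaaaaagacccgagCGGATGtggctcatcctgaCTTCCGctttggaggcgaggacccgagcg
MAGEC1, chrX:141903744-141903923, plus strand: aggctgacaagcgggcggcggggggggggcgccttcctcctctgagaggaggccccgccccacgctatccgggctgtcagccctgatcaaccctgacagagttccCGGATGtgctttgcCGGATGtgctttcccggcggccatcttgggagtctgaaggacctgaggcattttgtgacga
MAGEC2, chrX:142205261-142205440, minus strand: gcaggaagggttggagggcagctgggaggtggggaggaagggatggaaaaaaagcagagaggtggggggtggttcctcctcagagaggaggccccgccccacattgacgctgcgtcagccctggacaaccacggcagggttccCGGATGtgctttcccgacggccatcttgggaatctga

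Both letter strings contain a CG dinucleotide and the GGAA or GGAT core that transcription factors of the ETS family bind. In MAGEB2 the pair CGGATG and CGGAAG (the latter on the opposite strand) occurred in tandem, at 64 and 45 bases before the start and again at 18 before and 2 after it. MAGEB1 held the same pair, at 12 bases before and 8 after the second of its 2 annotated starts. MAGEC1 held CGGATG at 45 and 31 bases before its start, and MAGEC2 held it at 7. Of 35116 human promoters from 250 bases before to 50 after a start, 6.53% held CGGATG at least once on either strand, and 0.299% held it at least 2 times; 19.5% held CGGAAG. The CG dinucleotides in those 300 bases numbered 18 in MAGEB1, 21 in MAGEB2, 14 in MAGEC1 and 10 in MAGEC2, against a median of 14 over all promoters. The first MAGEB1 start had 1 CG and neither string. The strings were chosen from these same sequences, so the shares over all promoters are a background and not a test. A match describes the sequence and is not evidence of a bound factor, and DNA methylation was not analysed here.

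Levels are given as RPKM (reads per kilobase of gene, relative to the library's reads) after scaling between libraries, so genes can be compared per length. The libraries differed in depth, from 32600000 to 60400000 reads behind the RPKM, and the reads behind each value could be recovered as whole numbers. A change is a difference in log2(scaled RPKM + 0.5) from limma over all 24 libraries, with its standard error (SE), and it understates the fold of genes near 0. A gene is called when its p, adjusted by Benjamini-Hochberg over all 19377 genes, is under 0.05. Genes were tested if they had at least 0.5 RPKM in at least 2 libraries, which MAGEB1 and MAGEB2 reached only with drug. A count of called members beside the share of all tested genes is therefore a description and not a test. Ratios of scaled RPKM carry a 95% interval that covers counting error only. The sources do not say whether replicates A and B were separate cultures, so p-values measure the spread between these libraries. In the main model that spread was estimated for each gene over all 12 groups together. The SE of a gene for the same kind of comparison is therefore the same in each line. In bulk RNA a larger share of cells with the transcript and more transcript per cell cannot be told apart. The label of the lines was checked against marker genes. HepG2 libraries held hepatocyte markers (8 genes such as ALB and APOB) at a summed level of 6669 to 11707 scaled RPKM, whereas SNU398 held 0.592 to 47.2 and SNU475 1.94 to 71.4. The sum of 5 mesenchymal markers was instead 542 to 675 in SNU398 and 381 to 422 in SNU475, against 0.135 to 4.63 in HepG2. Nearly all of it was VIM and COL3A1. In vehicle COL1A1, COL1A2 and THY1 stood at only 0.638, 0.104 and 1.10 in SNU398, and at 2.55, 0.193 and 0.190 in SNU475. The highest hepatocyte sum in SNU398 was 0.708% of the lowest in HepG2, and in SNU475 it was 1.07%. In decitabine and combination libraries no member fell below 13.7% of its highest HepG2 level in SNU398, or below 17.5% in SNU475. These shares do not cover vehicle libraries, where the highest SNU475 hepatocyte sum lay. Whether HepG2 material entered libraries of the other lines was not tested.

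In vehicle-treated cells the MAGEB pair was almost silent in every line, and the MAGEC pair differed widely between lines. MAGEB1 stood at 0.0111 and 0.0121 scaled RPKM in HepG2 (1 read in each library), was listed at 0 in both SNU398 libraries, and stood at 0.00956 and 0.0192 in SNU475. MAGEB2 stood at 0.0532 and 0.0855 in HepG2, 0.0355 and 0.0190 in SNU398, and 0.202 and 0.164 in SNU475. Both SNU475 values of MAGEB2 lay above those of the other lines, and all 6 libraries were under the filter's minimum of 0.5. MAGEC1 was at 0.00555 and 0.0110 in HepG2, 0.222 and 0.175 in SNU398, and 0.761 and 0.588 in SNU475. MAGEC2, known as a tumour antigen of liver cancer, was listed at 0 and 0.0230 in HepG2, at 0.317 and 0.314 in SNU398, and at 3.79 and 3.53 in SNU475. For both MAGEC genes the 3 lines did not overlap, in the order HepG2, SNU398, SNU475. Vehicle-treated SNU475 thus already held MAGEC2 at a level that HepG2 and SNU398 reached only with both drugs.

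Against vehicle-treated HepG2, SNU398 had 2 of the 4 genes called higher, where 40.0% of all tested genes were. These were MAGEC1 (log2 difference 0.46, SE 0.078, adjusted p 6.3e-05) and MAGEC2 (0.67, SE 0.066, adjusted p 1.5e-07). SNU475 had 3 of 4 called higher than HepG2, beside 42.4% of all tested genes. MAGEC2 differed by 3.02 (adjusted p 1.2e-15), MAGEC1 by 1.20 (adjusted p 8.4e-10) and MAGEB2 by 0.26 (adjusted p 0.0040); under quantile normalization the MAGEB2 difference was -0.02. SNU475 also had 3 of 4 called higher than SNU398, beside 40.0% of all tested genes, with MAGEC2 differing by 2.35, MAGEC1 by 0.75 and MAGEB2 by 0.37. MAGEB2, on 6 reads in SNU398, was called lower there than in HepG2 in 3 of 11 alternatives: limma-voom on the recovered reads (adjusted p 0.041), a pseudocount of 0.1 RPKM (0.012) and quantile normalization (0.0059). MAGEB1, on 0 reads in SNU398, was called only with limma-voom, lower than in HepG2 (adjusted p 0.022) and than in SNU475 (0.015).

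**Figure D1:**
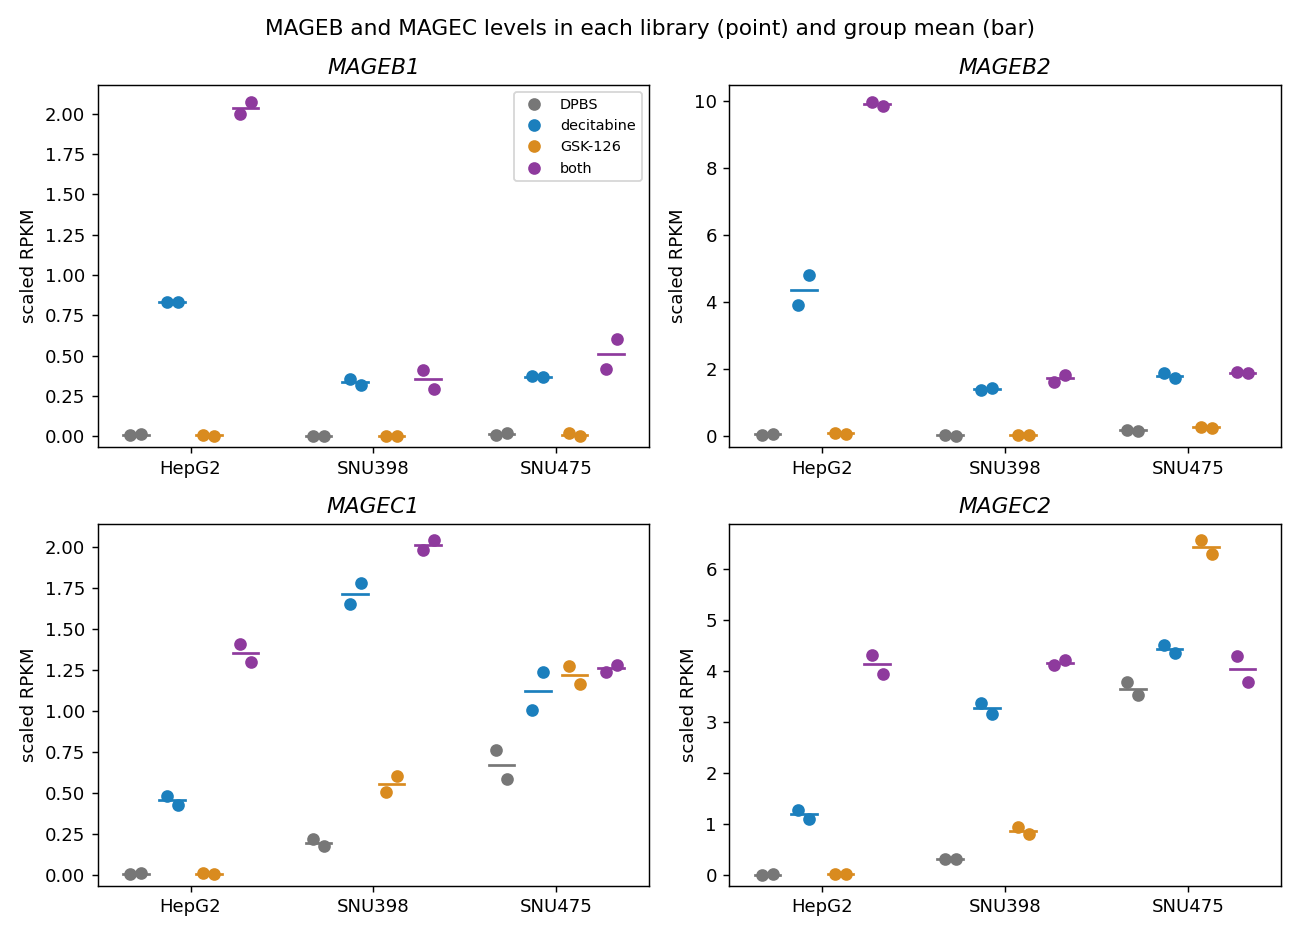
Scaled RPKM (vertical axis, its range set for each gene) of the 4 genes in every library (points) of 3 lines and 4 treatments, with the mean of the 2 libraries as a bar. The MAGEB genes rise with decitabine and stand highest in HepG2 with both drugs (2.04 and 9.93), and MAGEC2 stands highest in SNU475 with GSK-126 (6.43).

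Decitabine alone raised all 4 genes in all 3 lines. The rise of the MAGEB pair was steep in each line. As a ratio to vehicle, that of the MAGEC pair was smallest in SNU475, the line with the highest MAGEC vehicle levels. In scaled RPKM the gain of MAGEC1 was 0.447 in SNU475 and 0.448 in HepG2, and that of MAGEC2 was 0.778 and 1.18. In HepG2, MAGEB1 stood at 0.833 and 0.834 scaled RPKM with decitabine, and MAGEB2 at 3.92 and 4.82. MAGEC1 stood at 0.484 and 0.428, and MAGEC2 at 1.28 and 1.10. Every one of these libraries lay above both vehicle libraries of the line. MAGEB2 was 63.5 times its vehicle level (95% interval 34.3 to 133, on 528 and 10 reads). The vehicle levels of the other 3 rested on 2 or 3 reads, so their ratios are loose: 74.0 (20.1 to 618) for MAGEB1, 58.6 (19.6 to 287) for MAGEC1 and 107 (29.2 to 891) for MAGEC2. The log2 changes were 3.09 for MAGEB2, 1.73 for MAGEC2, 1.38 for MAGEB1 and 0.91 for MAGEC1, with SE of 0.066 to 0.078 and adjusted p of at most 1.4e-07. All 4 genes were called higher, where 35.9% of all tested genes were.

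In SNU398 decitabine took MAGEB1 from 0 to 0.355 and 0.320 scaled RPKM (83 reads in all), a change with no ratio because the vehicle was listed at 0. MAGEB2 reached 1.37 and 1.46, which was 51.2 times vehicle (23.3 to 141). MAGEC1 reached 1.65 and 1.78, 8.61 times vehicle (7.08 to 10.5), and MAGEC2 reached 3.38 and 3.17, 10.4 times vehicle (8.28 to 13.1). No decitabine library overlapped a vehicle library. The log2 changes were 0.74, 1.86, 1.67 and 2.21 in the order MAGEB1, MAGEB2, MAGEC1, MAGEC2, with adjusted p of at most 1.3e-06, and all 4 genes were called higher beside 23.4% of all tested genes.

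In SNU475 decitabine brought MAGEB1 to 0.371 and 0.365 scaled RPKM, 26.2 times vehicle (8.65 to 130, on 76 and 3 reads), and MAGEB2 to 1.88 and 1.75, 9.90 times vehicle (6.87 to 14.7). MAGEC1 reached 1.01 and 1.24, 1.66 times vehicle (1.44 to 1.92), and MAGEC2 reached 4.52 and 4.35, 1.21 times vehicle (1.10 to 1.33). The MAGEB levels were close to those of SNU398 with the same drug, while the MAGEC ratios were the smallest of the 3 lines. All 4 genes were called higher, beside 24.2% of all tested genes, with log2 changes of 0.76, 1.76, 0.47 and 0.25. The call of MAGEC2 (adjusted p 0.0053) depended on vehicle replicate B, without which its change was 0.20 (adjusted p 0.056).

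GSK-126 alone did not move the MAGEB pair past the threshold in any line, and raised the MAGEC pair in SNU398 and SNU475. In SNU398, MAGEC1 stood at 0.505 and 0.605 scaled RPKM, 2.79 times vehicle (2.23 to 3.50), and MAGEC2 at 0.940 and 0.806, 2.76 times vehicle (2.12 to 3.60). Both genes lay above vehicle and below decitabine in every library. Their log2 changes were 0.59 (SE 0.078, adjusted p 9.9e-06) and 0.75 (SE 0.066, adjusted p 1.5e-07), so that 2 of 4 genes were called higher, beside 30.0% of all tested genes. MAGEB2 stood at 0.0465 and 0.0331 scaled RPKM on 4 and 3 reads, and MAGEB1 was listed at 0 as in vehicle. The median change of all tested genes was 0.020 with scaling between libraries and -0.031 without it, and the directions of the MAGEC pair held.

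In SNU475 the same pair responded to GSK-126, from a much higher start. MAGEC2 stood at 6.57 and 6.30 scaled RPKM, the highest of its 12 groups, 1.76 times vehicle (1.61 to 1.92) and above every decitabine library. MAGEC1 stood at 1.27 and 1.17, 1.81 times vehicle (1.57 to 2.08). The log2 changes were 0.74 (SE 0.066, adjusted p 2.6e-07) for MAGEC2 and 0.55 (SE 0.078, adjusted p 2.5e-05) for MAGEC1, and 2 of 4 genes were called higher beside 21.5% of all tested genes. MAGEB2 stood at 0.274 and 0.260 scaled RPKM, above both vehicle libraries, with a log2 change of 0.17 (adjusted p 0.071). That change was called in 3 of 12 alternatives, with a pseudocount of 0.1 RPKM (adjusted p 0.031), quantile normalization (0.028) or the line fitted alone (0.049). MAGEB1 had 2 reads in replicate A and none in B.

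In HepG2 none of the 4 genes was called with GSK-126, where 52.6% of all tested genes were called in either direction. No gene passed at an unadjusted p under 0.05 with limma, nor with limma-voom on reads. The reads over both GSK-126 libraries numbered 1 for MAGEB1, 12 for MAGEB2, 3 for MAGEC1 and 3 for MAGEC2. Intervals of the ratio to vehicle were accordingly wide, 0.527 to 3.44 for MAGEB2, 0.149 to 8.28 for MAGEC1 and 0.191 to 19.9 for MAGEC2. The ratios seen for MAGEC1 and MAGEC2 in SNU398 with GSK-126, 2.79 and 2.76, lie within these intervals. In scaled RPKM the 2 genes gained 0.356 and 0.557 in SNU398, and only -0.000274 and 0.00673 in HepG2. The difference of the GSK-126 response between lines was not tested.

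The combination raised all 4 genes in HepG2 and SNU398 and 3 of them in SNU475. In HepG2, MAGEB1 stood at 1.998 and 2.07 scaled RPKM, MAGEB2 at 9.995 and 9.86, MAGEC1 at 1.41 and 1.30 and MAGEC2 at 4.33 and 3.95. These were the highest of the 4 treatments in the line for each gene, without overlap. The log2 changes from vehicle were 2.31, 4.20, 1.87 and 3.18 (adjusted p of at most 1.8e-11), and all 4 genes were called higher beside 40.6% of all tested genes. MAGEB2, with the most vehicle reads of the 4 in HepG2, was 144 times its vehicle level (78.0 to 302).

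In SNU398 the combination libraries held MAGEB1 at 0.414 and 0.296 scaled RPKM, MAGEB2 at 1.63 and 1.83, MAGEC1 at 1.98 and 2.04 and MAGEC2 at 4.11 and 4.22. The log2 changes from vehicle were 0.77, 2.08, 1.85 and 2.52 (adjusted p of at most 5.4e-07), and all 4 genes were called higher beside 28.9% of all tested genes. In SNU475, MAGEB1 stood at 0.418 and 0.602, MAGEB2 at 1.93 and 1.88, MAGEC1 at 1.24 and 1.28 and MAGEC2 at 4.30 and 3.79. There 3 of 4 genes were called higher, beside 25.3% of all tested genes, with log2 changes of 0.97 for MAGEB1, 1.82 for MAGEB2 and 0.59 for MAGEC1. MAGEC2 differed from vehicle by 0.13 (SE 0.066, adjusted p 0.12), with replicate B of the combination close to vehicle replicate A. Without combination replicate B the change was 0.21 (adjusted p 0.032).

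**Figure D2:**
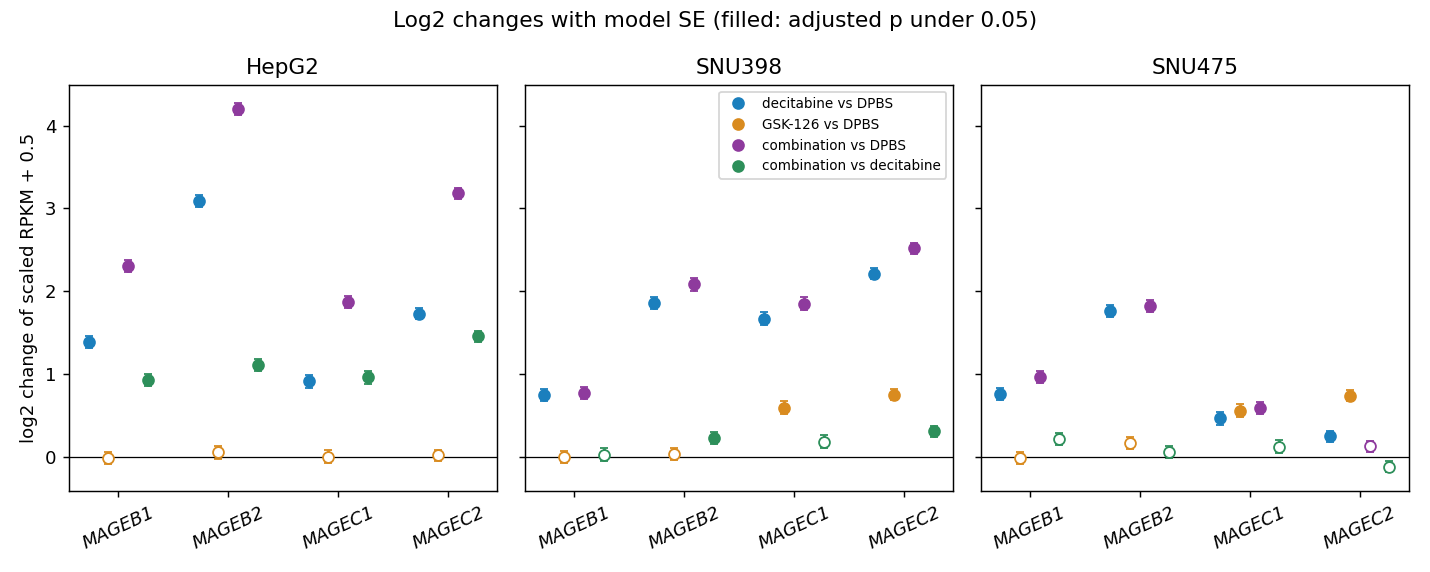
Log2 changes of scaled RPKM + 0.5 for each gene and line (points) with the SE of the limma model (bars), for the 3 drug groups against vehicle and for the combination against decitabine; filled points have an adjusted p under 0.05. GSK-126 points are open for both MAGEB genes in every line and filled for both MAGEC genes in SNU398 and SNU475, and the combination stands above decitabine for all 4 genes in HepG2.

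Adding GSK-126 to decitabine raised the 4 genes well above decitabine alone in HepG2 and little or not in the other lines. The HepG2 ratio of combination to decitabine was 2.45 for MAGEB1 (1.96 to 3.07), 2.27 for MAGEB2 (2.04 to 2.53), 2.97 for MAGEC1 (2.44 to 3.63) and 3.47 for MAGEC2 (2.91 to 4.14). The 4 intervals of HepG2 all lay above 1.9, and the larger ratios belonged to the MAGEC pair. The log2 differences were 0.93, 1.10, 0.96 and 1.45 (SE 0.066 to 0.078, adjusted p of at most 8.9e-08), and all 4 genes were called higher beside 30.0% of all tested genes.

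In SNU398 the ratios were 1.03 for MAGEB1 (0.745 to 1.42), 1.23 for MAGEB2 (1.05 to 1.45), 1.18 for MAGEC1 (1.07 to 1.29) and 1.27 for MAGEC2 (1.16 to 1.40). For MAGEB1 the 2 decitabine libraries lay between the 2 combination libraries, and for the other 3 genes both combination libraries lay above both decitabine libraries. MAGEC2 was called higher (log2 difference 0.31, adjusted p 0.0043), as was MAGEB2 (0.22, adjusted p 0.046), which made 2 of 4 beside 12.5% of all tested genes. MAGEC1 differed by 0.18 (adjusted p 0.12). The call of MAGEB2 was lost in 9 of 12 alternatives: with a pseudocount of 0.1 RPKM (adjusted p 0.19), no filter (0.094), quantile normalization (0.068), limma-voom (0.097), the replicate letter as a block (0.055) or the line fitted alone (0.070), and without any one of decitabine replicate A (0.22), decitabine replicate B (0.093) or combination replicate B (0.30). With limma-voom MAGEC1 was called in its place (adjusted p 0.031).

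In SNU475 no member was called between combination and decitabine with limma, where 18.3% of all tested genes were called in either direction. MAGEB1 alone passed at an unadjusted p under 0.05 (1 of 4), and with limma-voom 0 of 4 did. The ratios were 1.40 for MAGEB1 (1.02 to 1.92), 1.05 for MAGEB2 (0.887 to 1.24), 1.12 for MAGEC1 (0.991 to 1.28) and 0.908 for MAGEC2 (0.823 to 1.0015). Counting error therefore left room for a rise in MAGEB2 up to 1.24 times. MAGEB1 was higher in both combination libraries, with replicate B (0.602) well above replicate A (0.418). Without combination replicate A its log2 difference was 0.34 (adjusted p 0.0039), against 0.21 (adjusted p 0.058) with all libraries. MAGEC2 stood lower with the combination than with GSK-126 alone, at 0.626 times (0.572 to 0.685), and the libraries of the 2 groups did not overlap. That contrast was not among the comparisons fitted, so it carries no p-value.

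**Figure D3:**
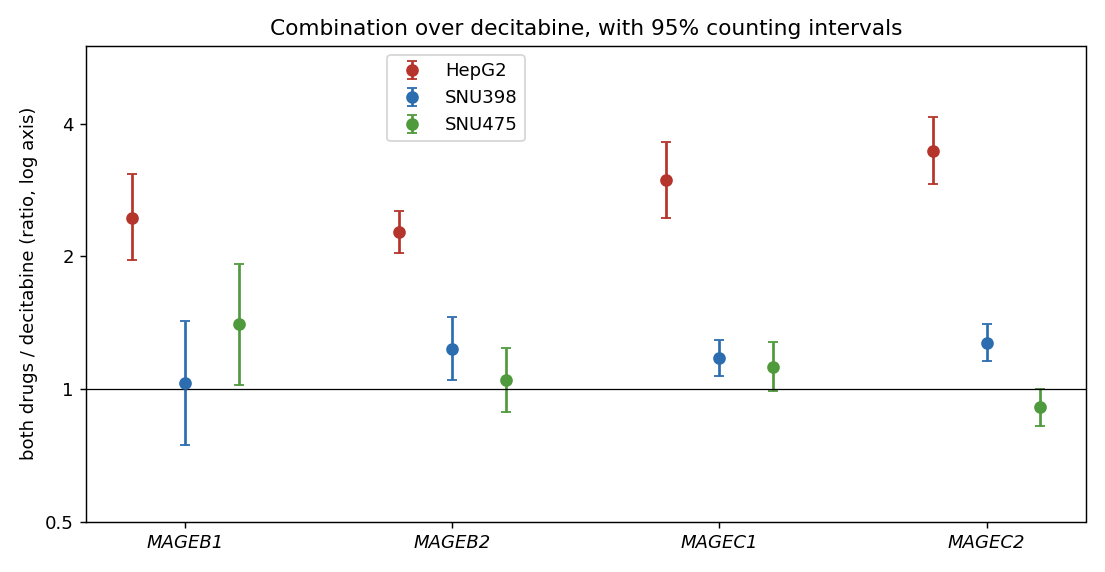
Ratio of scaled RPKM with both drugs to scaled RPKM with decitabine (vertical log axis) for the 4 genes in 3 lines; bars are 95% counting intervals from the summed reads of 2 libraries per group. The 4 HepG2 points lie between 2.27 and 3.47, and the points of SNU398 and SNU475 between 0.908 and 1.40.

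Whether the combination gave more than its parts was measured in 2 ways. The first was a linear excess, the gain of the combination over vehicle minus the sum of the gains of the single drugs, in scaled RPKM, with the SE from the spread of the libraries. In HepG2 the excess was 1.21 (SE 0.039) for MAGEB1, 5.54 (SE 0.45) for MAGEB2, 0.902 (SE 0.061) for MAGEC1 and 2.94 (SE 0.21) for MAGEC2. For each gene the excess was larger than the gain from decitabine itself, which was 0.822, 4.30, 0.448 and 1.18 in the same order. In SNU398 it was 0.0173 (SE 0.061), 0.305 (SE 0.11), -0.0592 (SE 0.090) and 0.332 (SE 0.14), small beside the gains from decitabine of 0.338, 1.39, 1.52 and 2.96. In SNU475 it was 0.147 (SE 0.093) for MAGEB1 and 0.00322 (SE 0.071) for MAGEB2, within 2 SE of 0. For the MAGEC pair in that line it was below 0, at -0.407 (SE 0.16) for MAGEC1 and -3.17 (SE 0.33) for MAGEC2. MAGEC2 gained 0.778 from decitabine and 2.77 from GSK-126 there, and only 0.387 from both.

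The second was the interaction term of the limma model, the same difference on the log2 scale. In HepG2 all 4 genes had a called positive term, beside 25.1% of all tested genes, at 0.94 for MAGEB1, 1.05 for MAGEB2, 0.96 for MAGEC1 and 1.44 for MAGEC2 (adjusted p of at most 2.9e-06). With limma-voom on reads the 4 terms were also positive, from 0.82 to 1.90, and none was called (0 of 4; 1 at an unadjusted p under 0.05), with adjusted p from 0.059 to 0.44. In SNU398 the term was called negative for 2 genes, MAGEC1 (-0.41, adjusted p 0.0070) and MAGEC2 (-0.44, adjusted p 0.0013), beside 22.8% of all tested genes. The median term of all tested genes in that line was -0.013 with scaling between libraries and 0.054 without it, and the signs of the pair held. In SNU475 MAGEC1 (-0.43, adjusted p 0.0062) and MAGEC2 (-0.86, adjusted p 5.5e-06) were again called negative, 2 of 4 beside 16.6% of all tested genes. The SNU475 call of MAGEC1 was lost when the line was fitted alone (adjusted p 0.058). The term of MAGEB1 in SNU475 was 0.23 (adjusted p 0.10), and 0.36 (adjusted p 0.0058) without combination replicate A. A negative term on the log2 scale says that the ratios of the single drugs did not multiply, and in SNU398 the same genes had a linear excess near or above 0.

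**Figure D4:**
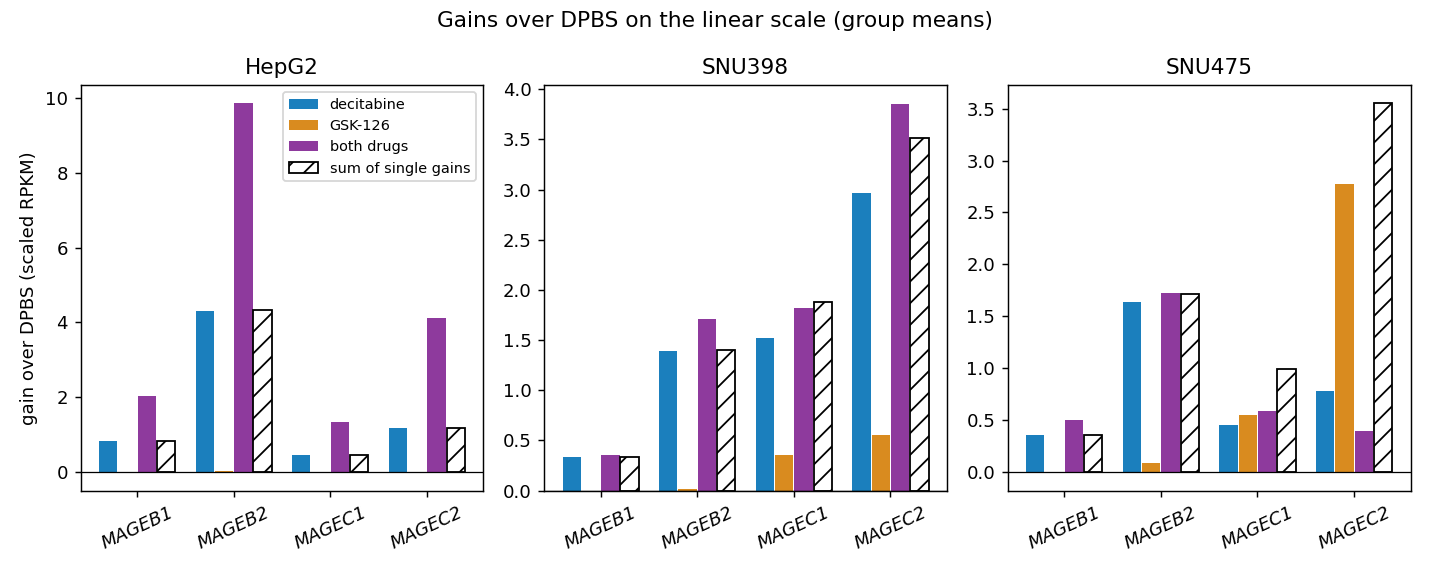
Gain over vehicle in scaled RPKM (bars start at 0, vertical range set for each line) for decitabine, GSK-126 and both drugs, as differences of group means, with the sum of the single-drug gains hatched. In HepG2 the combination bar of each gene exceeds the hatched bar, in SNU398 the 2 are close, and for MAGEC2 in SNU475 the combination gain of 0.387 lies below the GSK-126 gain of 2.77.

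The size of the combination's effect differed between lines. The log2 change from vehicle was smaller in SNU398 than in HepG2 for 3 of 4 genes, beside 31.9% of all tested genes, with differences of -1.54 for MAGEB1, -2.11 for MAGEB2 and -0.66 for MAGEC2 (adjusted p of at most 2.2e-05). MAGEC1 differed by -0.02 (adjusted p 0.89), and by 0.20 without scaling (adjusted p 0.13). This comparison depended on how values near 0 were treated. With limma-voom on reads the differences of MAGEB1 (-0.39, adjusted p 0.75) and MAGEB2 (-1.25, adjusted p 0.066) were not called, and that of MAGEC1 was (-3.75, adjusted p 2.4e-06). With a pseudocount of 0.1 RPKM MAGEC1 was called too, at -0.92 (adjusted p 0.00037).

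In SNU475 the change was smaller than in HepG2 for all 4 genes, beside 39.8% of all tested genes, by -1.34 for MAGEB1, -2.38 for MAGEB2, -1.28 for MAGEC1 and -3.05 for MAGEC2 (adjusted p of at most 7.9e-08). It was smaller than in SNU398 for 3 of 4, beside 33.8% of all tested genes, by -2.39 for MAGEC2, -1.26 for MAGEC1 and -0.26 for MAGEB2 (adjusted p 0.040). MAGEB1 differed by 0.20 (adjusted p 0.12), and by 0.33 (adjusted p 0.0054) without SNU475 combination replicate A or 0.30 (adjusted p 0.025) without SNU398 combination replicate A. It was also called with quantile normalization (0.29, adjusted p 0.040), and its sign was reversed with limma-voom (-1.71, adjusted p 0.10). The MAGEB2 difference was not called in 9 of 15 alternatives: with a pseudocount of 1 RPKM (adjusted p 0.26), without a filter (0.080), with quantile normalization (0.50), or without any one of SNU398 vehicle A (0.057) or B (0.11), SNU398 combination B (0.16), SNU475 vehicle A (0.13), or SNU475 combination A (0.064) or B (0.096).

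Ranked over the 12 groups, the MAGEB genes shared 1 order at the top and the MAGEC genes did not. MAGEB1 and MAGEB2 both stood highest in HepG2 with the combination (2.04 ± 0.054 and 9.93 ± 0.095 scaled RPKM; SD, n = 2) and next in HepG2 with decitabine (0.833 ± 0.00060 and 4.37 ± 0.63). Below these came the decitabine and combination groups of SNU475 and SNU398, from 0.338 to 0.510 for MAGEB1 and from 1.41 to 1.90 for MAGEB2. For MAGEB2 the 2 libraries of SNU475 combination, SNU475 decitabine and SNU398 combination overlapped from each group to the next. All vehicle and GSK-126 groups stood below them, at most 0.0144 for MAGEB1 and 0.267 for MAGEB2. Per length MAGEB2 was above MAGEB1 in each group, by 9.93 to 2.04 in HepG2 with both drugs.

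MAGEC1 stood highest in SNU398 with the combination (2.01 ± 0.042) and with decitabine (1.72 ± 0.091), then in HepG2 with the combination (1.36 ± 0.076). The SNU475 combination (1.26 ± 0.031), GSK-126 (1.22 ± 0.075) and decitabine (1.12 ± 0.16) groups followed, each overlapping the next. MAGEC2 stood highest in SNU475 with GSK-126 (6.43 ± 0.19) and with decitabine (4.43 ± 0.12). The combination groups of SNU398 (4.17 ± 0.075), HepG2 (4.14 ± 0.26) and SNU475 (4.04 ± 0.36) came next and overlapped, together with SNU475 vehicle (3.66 ± 0.19). With both drugs the 3 lines thus reached similar MAGEC2 levels from vehicle levels that ranged from 0.0115 to 3.66. Of the 11 neighbouring pairs in each order, 7 overlapped for MAGEB1 and 4 for each of the other genes.

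Within each pair the profiles were alike. Over the means of the 12 groups, in log2(scaled RPKM + 0.5), Pearson's r was 0.98 between MAGEB1 and MAGEB2 and 0.93 between MAGEC1 and MAGEC2. Between a MAGEB and a MAGEC gene it was 0.43 to 0.58. These are descriptions over groups that share lines and treatments. Among 16101 tested genes with a group mean of at least 1, the profiles most like MAGEB1 were those of the pseudogene RP3-400B16.2 (0.99), the antisense transcript PROSER2-AS1 (0.98) and TFDP3 (0.98), an X-linked relative of the DP transcription factors. For MAGEB2 they were RP3-400B16.2 (0.99), PROSER2-AS1 (0.99) and PNMA5 (0.98), a paraneoplastic antigen family gene on the X chromosome. All 4 of these genes also stood highest in HepG2 with both drugs, from levels at or near 0 in their lowest group. The genes most like MAGEC1 were RHBDF1 (0.92), SUPT5H (0.91) and AKT1 (0.90), and those most like MAGEC2 were ZFYVE21 (0.95), CC2D1B (0.93) and TRMT12 (0.93). None of these 6 was near 0 in any group, and their lowest group mean was 0.653 scaled RPKM, for RHBDF1.

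Most neighbours of the 4 genes stayed low. Besides the members, 10 genes of the table lay within 200 kb of one, and only NR0B1 passed the filter; 3 were at 0 in every library. NR0B1 encodes the orphan nuclear receptor DAX1 and lies 52168 bases from MAGEB1. Its highest level was 9.34 ± 0.039 scaled RPKM (SD, n = 2) in SNU475 with GSK-126. In vehicle, SNU475 exceeded both HepG2 and SNU398 by a log2 difference of 3.74, so NR0B1 was near 0 in those 2 lines. NR0B1 rose in HepG2 with decitabine (0.58, adjusted p 2.1e-06) and the combination (0.84, adjusted p 1.8e-08), where the MAGEB pair rose too. Its HepG2 interaction was called positive, as for the MAGEB pair (0.27, adjusted p 0.022). In SNU475 NR0B1 rose with the combination (0.30, adjusted p 0.00090), as the MAGEB pair did, and with GSK-126 (0.54, adjusted p 5.0e-06), where the pair was not called. In SNU398 decitabine changed it by 0.00 (adjusted p 1.0), in cells in which MAGEB2 rose 51.2-fold. Relatives lying beside the members stayed under the filter. MAGEB3, 6240 bases from MAGEB1, reached 0.0744 scaled RPKM and MAGEC3, 6062 bases from MAGEC1, reached 0.0613, both in HepG2 with both drugs. MAGEB4 overlaps MAGEB1 and had reads in 1 library only.

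Of 9 germline relatives in the MAGEB and MAGEC subfamilies, MAGEB6 alone was tested. Under the filter, MAGEB10 stood in HepG2 at 0 scaled RPKM in vehicle, 0.301 with decitabine and 0.806 with both drugs. MAGEB17 stood there at 0, 0.116 and 0.390, and the other untested relatives reached at most 0.0922 with both drugs (MAGEB18). In SNU475 with both drugs MAGEB17 stood at 0.327 and MAGEB10 at 0.00583. MAGEB6 stood at 0.246 ± 0.067 scaled RPKM in vehicle-treated HepG2, 2.03 ± 0.30 with decitabine, 0.258 ± 0.0027 with GSK-126 and 3.70 ± 0.29 with both (SD, n = 2). Its combination change was 2.50 in HepG2 (adjusted p 4.6e-13), 0.45 in SNU398 (adjusted p 0.00015) and -0.01 in SNU475 (adjusted p 0.94). MAGEB6 thus rose with the MAGEB pair in HepG2 and was not called in SNU475, where both MAGEB genes rose. Of its stretches of 75 bases, the read length, 7.15% also occur in transcripts of MAGEB6B, so its reads could be split. For MAGEB1 1 of 1964 such stretches occurred in another gene, MAGEB4, and for MAGEB2, MAGEC1 and MAGEC2 none did, in GENCODE's transcripts.

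Of 11 broadly expressed MAGE genes 7 were tested. With the combination 6 were called higher and 1 lower in HepG2, 5 higher and 1 lower in SNU398, and 1 higher and 3 lower in SNU475. Of all tested genes 40.6%, 28.9% and 25.3% were called higher in these lines, and 25.9%, 18.4% and 29.6% lower. Their median log2 changes were 0.31, 0.20 and -0.02, beside 0.08, 0.03 and -0.01 over all tested genes. NDN, which encodes the imprinted growth suppressor necdin, went from 0.00555 to 2.75 scaled RPKM in HepG2 (log2 change 2.69, adjusted p 1.1e-15). NDN was broadly expressed in the other lines, at 15.5 scaled RPKM in SNU398 vehicle and 21.1 in SNU475 vehicle, and changed by 0.41 and 0.20 there. In the order HepG2, SNU398, SNU475, MAGED1 changed by 0.06, 0.56 and -0.54. MAGEH1 changed by 0.34, 0.52 and -0.02, and NDNL2 by 0.39, 0.20 and 0.04. Of 7 genes for MAGE-bound ligases and their reported substrates 6 were tested, with 3 called higher and 1 lower in HepG2, 0 and 5 in SNU398, and 2 and 3 in SNU475. Their median log2 changes were 0.16, -0.18 and -0.17, beside the same 0.08, 0.03 and -0.01 over all tested genes. TRIM28 changed by 0.31 in HepG2, -0.21 in SNU398 and 0.41 in SNU475. G3BP1, a stress granule protein, changed by -0.43 in HepG2, -0.19 in SNU398 and -0.20 in SNU475. LNX1, a ubiquitin ligase, rose by 1.06 in HepG2 and was not called in the other lines. NSMCE1 changed by 0.01 in HepG2 (not called), -0.63 in SNU398 and -0.22 in SNU475.

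Marker genes of other cell types also changed level with treatment. The summed level of 6 germ cell genes (DDX4, DAZL, TNP1, PRM1, PRM2 and ACR) was between 0.103 and 0.140 scaled RPKM in vehicle-treated HepG2, between 3.61 and 3.83 with decitabine and between 3.28 and 3.34 with the combination. In HepG2 the combination thus did not exceed decitabine in this sum, but the 6 genes did not move alike. PRM2, a protamine of sperm chromatin, stood at 1.69 with decitabine and 0.825 with both drugs, and PRM1 at 1.29 and 1.20. Higher with both drugs were DAZL (0.419 and 0.752), DDX4 (0.0973 and 0.254), ACR (0.0195 and 0.0673) and TNP1 (0.197 and 0.212). For PRM1 and TNP1 the libraries of the groups overlapped. In SNU398 the sum was between 0.00432 and 0.00694 in vehicle, between 1.93 and 2.19 with decitabine and between 1.95 and 2.01 with the combination, of which DAZL, a germ cell RNA-binding protein, made up 1.84. In SNU475 it was between 0.00860 and 0.0375 in vehicle, between 0.102 and 0.173 with decitabine and between 0.276 and 0.361 with the combination. In vehicle libraries 3 of the 6 genes were at 0 in HepG2 (DAZL, DDX4 and TNP1) and 4 in each of the other lines (DAZL, PRM1, PRM2 and TNP1). With the combination PRM1 and PRM2 were still at 0 in SNU398, and PRM1 and TNP1 in SNU475. The hepatocyte sum in HepG2 was between 11624 and 11707 in vehicle and between 6669 and 6688 with the combination. The mesenchymal sum in HepG2 was between 0.284 and 0.324 in vehicle, between 0.860 and 1.69 with decitabine and between 2.90 and 4.63 with the combination, with VIM (vimentin) at 0.180, 0.811 and 2.40. The part of these changes in the result was not tested. Repeat loci close to the members, with simple repeats and low-complexity loci left out, did not carry comparable reads. With that exclusion 13, 24, 23 and 23 loci lay within 10 kb of MAGEB1, MAGEB2, MAGEC1 and MAGEC2. Of these 1, 5, 7 and 7 had any read, and none had 10 reads over the combination libraries.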

How the data were processed

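The 24 libraries were made from RNA depleted of ribosomal RNA, stranded, and sequenced as single reads of 75 bases, per the labels' protocols. Per the submitters' processing notes the authors used HISAT2, featureCounts and hg19; neither their versions nor the strand setting nor the handling of multiple mapping is given in the sources used here. The 2 tables the authors deposited, for genes and for repeat loci, hold RPKM rounded to 3 decimals. Because MAGEB4 overlaps MAGEB1, the strand setting bears on that pair.

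RPKM values were scaled by median of ratios over 8211 genes at 1 RPKM or more in every library (factors 0.847 to 1.16). Reads recovered from the steps in RPKM were whole within 0.15 reads for 100% of the values checked. Genes with at least 0.5 RPKM in at least 2 libraries were tested with limma 3.58.1 in R 4.3.3 on log2(scaled RPKM + 0.5), in 1 model over the 12 groups with 12 residual degrees of freedom and 21 comparisons, after a check on simulated data. A permutation of 2 against 2 libraries cannot pass 0.05 and was not used. MAGEB1 and MAGEB2 passed the filter only through drug-treated libraries, and MAGEC1 and MAGEC2 with 2 vehicle libraries of SNU475. Alternatives were other pseudocounts, no filter, no scaling, quantile normalization, limma-voom on recovered reads, a replicate term, single lines, and leaving out each library.

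The members and lists were chosen with earlier results of these data known. Named were the members, up to 4 genes per list that were called for the combination against vehicle in at least 1 line, all genes within 200 kb, and per member the 3 genes with the highest correlation over group means. Promoter sequences are RefSeq's on GRCh38.p14, matched by symbol for 4 of 4 members.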

Additional observations from a re-analysis of the deposited data

Results flagged for a closer look

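The change from vehicle to the combination differed between lines by limma's test of the difference for the values below, all in log2(scaled RPKM + 0.5). Between SNU398 and HepG2 the difference was -1.54 for MAGEB1 (adjusted p 1.1e-08), -2.11 for MAGEB2 (adjusted p 3.7e-10) and -0.66 for MAGEC2 (adjusted p 2.2e-05). Between SNU475 and HepG2 it was -1.34 for MAGEB1, -2.38 for MAGEB2, -1.28 for MAGEC1 and -3.05 for MAGEC2. Between SNU475 and SNU398 it was -0.26 for MAGEB2 (adjusted p 0.040), -1.26 for MAGEC1 and -2.39 for MAGEC2. With limma-voom on reads the SNU398 against HepG2 differences of MAGEB1 (adjusted p 0.75) and MAGEB2 (0.066) were not called, and the MAGEB2 difference between SNU475 and SNU398 was not called in 9 of 15 alternatives (adjusted p up to 0.50). Every combination library lay above every vehicle library of its line for each of these genes, except MAGEC2 in SNU475, whose ranges were 3.79 to 4.30 and 3.53 to 3.79 scaled RPKM. The lines were harvested on different days (14 for HepG2 and SNU398, 21 for SNU475), and line and day cannot be told apart for SNU475.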

How the results depend on the processing

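Of the counts of called members recomputed under each alternative, 258 stayed within 1.5 times their value and 12 moved. The count for the combination against decitabine in SNU398 was 2, and 1 with a pseudocount of 0.1 RPKM, with no filter, with quantile normalization, with the replicate block (A or B as a term) and with the line fitted alone. Leaving out single libraries it ranged from 1 to 2, and in SNU475 from 0 to 1. With limma-voom the interaction in HepG2 went from 4 to 0, and the count for SNU398 against HepG2 in vehicle from 2 to 4 in either direction. The interaction in SNU475 went from 2 to 1 with the line fitted alone. Of 1080 tested values of single genes under the alternatives, 1036 kept their side of the threshold, 17 passed it newly, 26 no longer passed, and 1 reversed, MAGEB2 between vehicle-treated SNU475 and HepG2, at -0.017 with quantile normalization. The linear excess moved by less than its SE in 8 of 12 cases without scaling; in HepG2 it moved further, to 1.08, 4.95, 0.800 and 2.60 for MAGEB1, MAGEB2, MAGEC1 and MAGEC2. Causes were not tested.

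Whether the letters A and B pair libraries across treatments cannot be decided from the values here. The difference of A minus B, over the tested genes, was correlated between the groups of a line. These correlations ran from -0.050 to 0.055 in HepG2, -0.12 to 0.24 in SNU398 and -0.079 to 0.13 in SNU475. The replicate block changed no other count by over 1.5 times. Scaling moved the share of higher genes among all called. With the main scaling, none and quantile normalization it was 66.3%, 53.3% and 46.3% for decitabine in HepG2, 61.0%, 57.3% and 47.9% for the combination in HepG2, and 57.3%, 38.3% and 49.3% for GSK-126 in SNU398. In SNU398 it was 60.4%, 57.0% and 49.1% for decitabine, 61.0%, 56.6% and 49.2% for the combination, and 44.7%, 64.7% and 51.8% for the interaction. For SNU398 against HepG2 in vehicle it was 52.3%, 64.2% and 54.8%, and for the combination's effect in SNU475 against HepG2 38.4%, 40.3% and 50.6%. Without scaling, the median difference of all tested genes in vehicle went from 0.012 to 0.22 for SNU398 against HepG2, from 0.036 to 0.15 for SNU475 against HepG2, and from 0.012 to -0.045 for SNU475 against SNU398. Vehicle levels of MAGEB1 rest on 0 to 3 reads per group, which limits its ratios.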
